A study of Mus musculus with 17 samples.

Results

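The transcripts described here encode 4 CXC chemokines, Cxcl9, Cxcl10, Cxcl13 and Cxcl16, in medullary thymic epithelial cells of the mouse. They are 4 of the 19752 genes that the array measured with a probe set of a single gene symbol, and each has 1 such probe set. All 4 passed the filter on dim probe sets, which kept 13842 genes for testing. Cxcl13 was chosen by its strong dependence on Aire in these arrays, that is, by its levels in KO and WT cells, so its differences in every comparison that holds GFP+ cells are given as a description, with no test. A difference of another gene was called where limma gave an adjusted p under 0.05 over all tested genes, and a difference on the log2 scale is followed by its standard error.

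Medullary thymic epithelial cells show developing T cells the self-antigens of other tissues, and the product of Aire drives the transcription of many of these antigens. CXC chemokines are secreted attractants of leukocytes that act through receptors of the Cxcr family. Cxcl9 and Cxcl10 are induced by interferon-gamma in many cell types and attract activated T cells through Cxcr3, Cxcl13 is made by follicular stromal cells and attracts B cells through Cxcr5, and Cxcl16 is a membrane-anchored ligand of Cxcr6 that the proteases Adam10 and Adam17 release. In the thymus, medullary chemokines draw thymocytes and dendritic cells towards the epithelium.

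RNA of sorted CD45-, Ly51- epithelial cells with high MHC class II was hybridised to 17 whole-transcript arrays in 6 groups. The adult groups, from mice 5 weeks old, were Aire KO GFP+ (3 arrays), Aire WT GFP+ (3) and Aire WT GFP- (3). The perinate groups were Aire KO GFP+ (3), Aire WT GFP+ (3) and Aire WT GFP- (2), from mice 3 days old by the sample labels and 0 to 3 days old by the series text. All mice were C57BL/6 of mixed sex and carried Adig, an Igrp-GFP reporter under the control of Aire, so GFP marks cells in which the Aire locus is active, KO cells included, and no array holds KO GFP- cells. The labels do not say whether arrays of a group came from separate mice, so the p-values measure only the spread between these arrays.

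The arrays differed little in scale, with median intensities of 144.5 to 157.1, and Pearson's correlation of log2 values over the tested genes ran from 0.97 to 0.995 within groups and from 0.757 to 0.96 between groups. Aire itself read 4689 to 5242 in adult KO GFP+ cells against 4355 to 6196 in adult WT GFP+ cells, and 4072 to 6000.0 in perinate KO GFP+ cells against 4094 to 5336 in perinate WT GFP+ cells. This probe set therefore does not tell KO from WT, and the labels do not say which part of Aire was deleted, so it checks nothing about the genotype. Perinate KO arrays 2 and 3 went against their label of mixed sex: the Y-linked transcript Uty read 19.2 and 16.1 there and between 169 and 366 on the other 15 arrays, while the X-inactivation transcript Xist read 5203 and 5167 there and between 2104 and 4509 on the others. Results on perinate KO cells that were called, or that concern the 4 chemokines, are therefore also given with array 1 of that group alone. The medullary epithelial markers summed to 45049 to 65106 on all arrays, and the markers gated against, Ptprc (CD45) at 81.7 to 301.0 and Enpep (Ly51) at 79.9 to 306.6, both passed the filter on dim probe sets.

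The members Cxcl9, Cxcl10 and Cxcl13 lie on chromosome 5, where of protein-coding genes Art3 alone separates Cxcl9 and Cxcl10, and Cxcl16 lies on chromosome 11. The bases just before the annotated starts of the chromosome 5 members are shown because Cxcl9 and Cxcl10, both interferon-inducible, did not share a call in KO cells, and because Cxcl13 stood far lower there. They come from RefSeq (GRCm38.p6), 250 bases each, read 5' to 3' on the strand of the gene, and no window for Cxcl16 was matched. Capitals mark the motifs found on either strand among 4 that were searched. These were the interferon-stimulated response element (GAAA, then NN, then GAAA), the gamma-activated site (TTC, then NNN, then GAA), the kappaB site (GGGA, N, TT, N and CC) and the TATA box (TATAAA), where N is any base. Each sequence follows its gene, position and strand.
Cxcl9, chr5:92328080-92328329, minus strand: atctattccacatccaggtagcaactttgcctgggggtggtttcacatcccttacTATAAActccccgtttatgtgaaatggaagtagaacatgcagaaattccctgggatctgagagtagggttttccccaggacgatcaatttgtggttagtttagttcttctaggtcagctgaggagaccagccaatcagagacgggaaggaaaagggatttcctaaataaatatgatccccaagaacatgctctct
Cxcl10, chr5:92348890-92349139, minus strand: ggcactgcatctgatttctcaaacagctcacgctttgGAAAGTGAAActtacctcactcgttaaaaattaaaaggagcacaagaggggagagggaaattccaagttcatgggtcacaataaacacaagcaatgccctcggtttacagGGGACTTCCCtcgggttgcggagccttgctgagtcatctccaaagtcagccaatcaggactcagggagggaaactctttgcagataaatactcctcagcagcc
Cxcl13, chr5:95956689-95956938, plus strand: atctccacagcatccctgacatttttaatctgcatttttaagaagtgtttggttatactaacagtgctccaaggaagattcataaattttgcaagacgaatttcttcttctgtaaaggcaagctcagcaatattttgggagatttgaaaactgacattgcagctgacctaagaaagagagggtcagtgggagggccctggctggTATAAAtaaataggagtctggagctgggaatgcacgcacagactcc
The Cxcl10 window held the interferon-stimulated element at bases -213 to -204, a motif found in 2.98% of 32851 RefSeq promoter windows of this length. It also held a kappaB site at bases -103 to -94, found in 0.98% of the windows. The Cxcl9 window held TATAAA at -195 to -190 and the Cxcl13 window held it at -46 to -41, a motif of 12.4% of windows. The letters of the gamma-activated site, present in 7.02% of windows, were in none of these 3. These matches overlap no other motif searched and are a description of the letters.

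Cxcl13, the B cell attractant, was brightest in WT GFP+ cells. It read 552, 605 and 319 in adult KO GFP+ cells, against 2384, 2601 and 2557 in adult WT GFP+ cells. In perinates it read 244, 133 and 142 in KO GFP+ cells, against 2904.5, 2733 and 2722 in WT GFP+ cells. Every KO array lay below every WT array of its age, which 40.3% of all tested genes showed in either direction in adults and 43.1% in perinates. The log2 difference, KO minus WT, was -2.41 ± 0.27 (SE) in adults, 5.30-fold lower, and -4.07 ± 0.27 in perinates, 16.8-fold lower. With perinate KO array 1 alone, which was the highest of the 3, the perinate difference was -3.51. These are the values that chose Cxcl13 and are described only.

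Among cells of WT mice, Cxcl13 was the brighter in those with the reporter. The 2384 to 2601 of adult WT GFP+ cells stood against 418, 652 and 347.5 in adult WT GFP- cells. The 2722 to 2904.5 of perinate WT GFP+ cells stood against 161 and 102 in perinate WT GFP- cells. The arrays overlapped at neither age, as for 56.1% of all tested genes in adults and 56.5% in perinates. The log2 difference, GFP+ minus GFP-, was 2.46 ± 0.27 in adults and 4.44 ± 0.30 in perinates, or 5.51-fold and 21.8-fold higher in GFP+ cells. This comparison and that of KO against WT share the WT GFP+ arrays. Within each age KO GFP+ arrays overlapped WT GFP- arrays, at 319 to 605 in adult KO GFP+ cells against 347.5 to 652 in adult WT GFP- cells, and at 133 to 244 in perinate KO GFP+ cells against 102 to 161 in perinate WT GFP- cells.

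**Figure D1:**
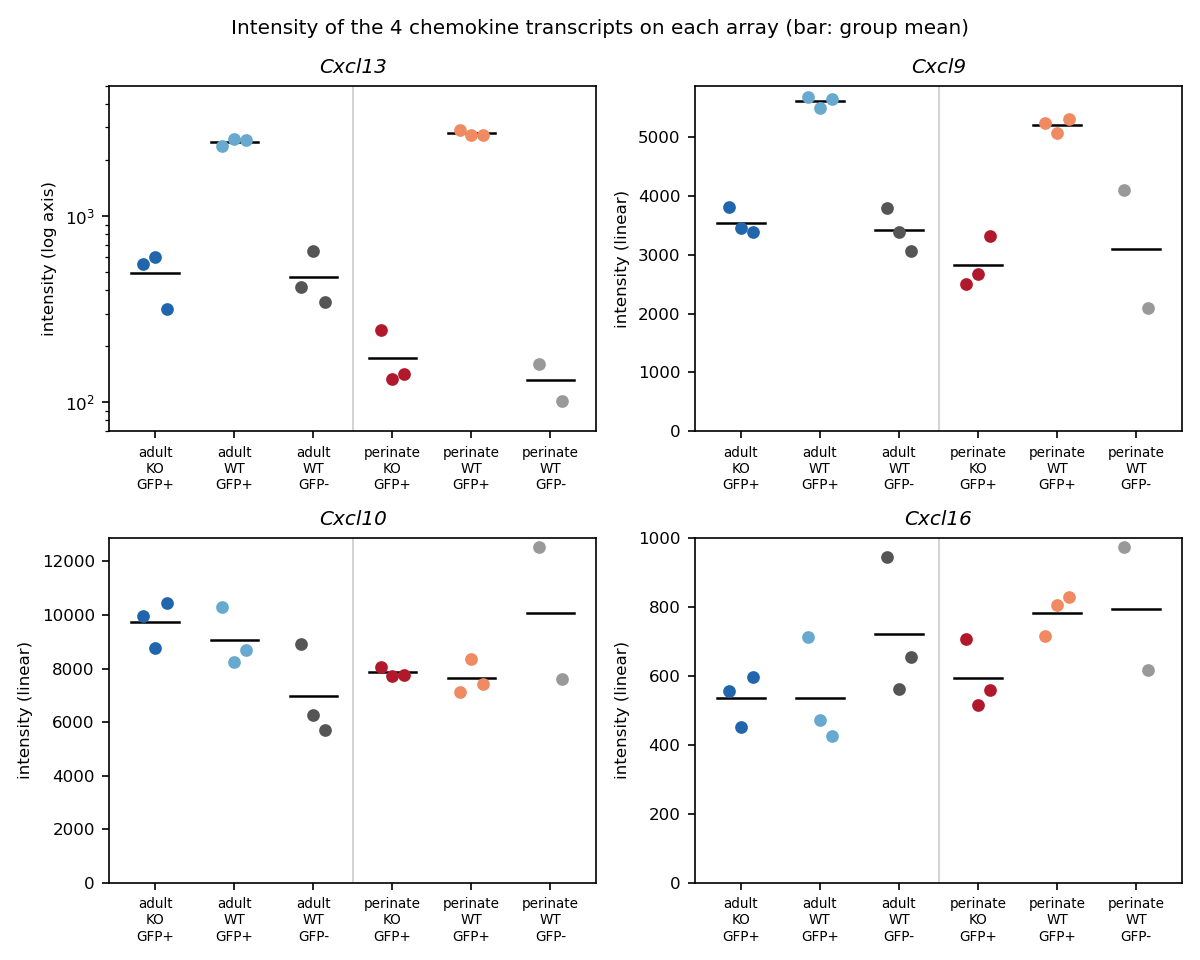
Intensity of each chemokine's probe set on each of the 17 arrays (points) with the group mean (bar), for adult and then perinate KO GFP+, WT GFP+ and WT GFP- cells; the axis is logarithmic for Cxcl13 and linear from 0 for the others. Cxcl13 lies between 2384 and 2904.5 on the 6 WT GFP+ arrays and at or below 652 on the other 11, while the KO and WT arrays of Cxcl10 overlap at both ages.

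The one test of Cxcl13 that its choice leaves independent compared the ages in WT GFP- cells, which entered neither KO comparison. Cxcl13 averaged 472 ± 159 in adult GFP- cells (SD, n = 3) and 131 ± 41.5 in perinate GFP- cells (SD, n = 2), with no overlap, as for 60.5% of all tested genes. The log2 difference, perinate minus adult, was -1.83 ± 0.30 (limma, adjusted p = 9.12e-05), 3.56-fold lower in perinates, in a comparison that called 46.4% of all tested genes and 24.2% as lower in perinates. Leaving out each array in turn gave -2.16 to -1.50, with adjusted p from 8.39e-05 to 0.00406. The perinate GFP- arrays, at 161 and 102, lay near the 40th percentile of an array, 96.2 to 112, so the dim end limits the size of this difference. Perinate KO arrays 2 and 3, at 133 and 142, were also close to it, which limits the perinate KO and GFP+ sizes above. Markers of most cell types followed also differed. Lower in perinate GFP- cells were 6 of the 7 tested M cell markers (median -1.61), 8 of 12 medullary epithelial (-0.29), 4 of 7 dendritic cell and macrophage (-0.51), 2 of 3 endothelial, 1 of 4 B cell and 1 of 7 T cell markers, and none of these lists had a member called higher. Of the 5 cortical epithelial markers 3 were higher and 1 was lower. Of the 9 fibroblast and follicular stromal markers 2 were higher and 2 lower (median 0.20), Cr2 of follicular dendritic cells being among the lower at -1.63 ± 0.19.

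The M cell markers summed to 10214 to 11593 in GFP- cells of adults, compared with 2821 to 4064.5 in those of perinates, and the medullary markers to 55131 to 57880.4 in GFP- cells of adults, compared with 45049 to 46069 in those of perinates. The 8 B cell markers had sums of 1136 to 1313 in GFP- cells of adults, compared with 609 to 682.5 in those of perinates, though 1 of the 4 tested was called. The sum of the 9 stromal markers was higher in perinates, at 2296 to 2682 in GFP- cells of adults, compared with 3924 to 3960.1 in those of perinates. Of these 9, however, 2 were called higher and 2 lower. A sum follows its brightest probe sets and does not give the direction of each marker. Ptprc was also lower in perinate GFP- cells, at -1.10 ± 0.31. The part of these differences in that of Cxcl13 was not tested.

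In KO GFP+ cells, where no test is given, the difference of Cxcl13, perinate minus adult, was -1.51 ± 0.27, or -0.96 with perinate KO array 1 alone. In WT GFP+ cells it was 0.15 ± 0.27, with adult arrays at 2384 to 2601 below perinate arrays at 2722 to 2904.5, where 39.7% of all tested genes separated in either direction. The age difference of the KO effect, perinate minus adult, was therefore -1.66 ± 0.38, or -1.11 with array 1 alone, and that of the GFP+ effect was 1.98 ± 0.40, both described only.

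By mean log2 level, Cxcl13 stood highest in WT GFP+ cells, perinate above adult. Adult KO GFP+ and adult WT GFP- cells came next, then perinate KO GFP+ and perinate WT GFP- cells. Neighbours in that order overlapped in their arrays only between the adult KO GFP+ and adult WT GFP- groups and between the perinate KO GFP+ and perinate WT GFP- groups. The 3 tested genes whose centred log2 profile lay nearest to that of Cxcl13, by the root mean square difference over 17 arrays, were Cga, a hormone alpha subunit, at 0.55, Il9, a T cell cytokine, at 0.66, and Gatm, an enzyme of creatine synthesis, at 0.70. Cga averaged 104 ± 13.1 in adult KO GFP+ cells against 689 ± 124 in adult WT GFP+ cells, with 151 ± 39.8 in adult WT GFP- cells (SD, n = 3 each). In perinates it averaged 47.8 ± 7.76 in KO GFP+ cells against 462 ± 32.4 in WT GFP+ cells (SD, n = 3 each) and 52.3 ± 1.62 in WT GFP- cells (SD, n = 2). These genes were picked for their likeness and carry no test.

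Cxcl9, a Cxcr3 ligand, was lower in KO cells at both ages. It read 3808, 3448 and 3382 in adult KO GFP+ cells, against 5686, 5494.5 and 5640 in adult WT GFP+ cells. Perinate arrays read 2509, 2665.5 and 3311 in KO GFP+ cells, against 5241, 5072 and 5307 in WT GFP+ cells. KO and WT arrays overlapped at neither age, as for 40.3% of all tested genes in adults and 43.1% in perinates. Cxcl9 fell by 0.66 ± 0.18 on the log2 scale in adult KO cells, 1.58-fold (limma, adjusted p = 0.0127). In perinate KO cells it fell by 0.89 ± 0.18, 1.85-fold (adjusted p = 0.00139). Of the 3 members tested in these comparisons 1 was called at each age, Cxcl9. In adults 19.9% of all tested genes were called, 9.06% higher and 10.8% lower in KO cells, and in perinates 26.5%, 13.5% higher and 13% lower.

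The fall of Cxcl9 kept an adjusted p of 0.0221 to 0.0474 in adults when each array was left out in turn, and its perinate value with KO array 1 alone was -1.05 (adjusted p = 0.0153). The effect in perinates minus that in adults was -0.23 ± 0.25, 95% interval -0.75 to 0.30 (adjusted p = 0.673; -0.39 with perinate KO array 1 alone). In that comparison limma called 0 of the 3 tested members and none had an unadjusted p under 0.05, beside 1.21% of all tested genes called, 0.722% as higher and 0.484% as lower. Markers of another cell type moved with Cxcl9 and Cxcl13: of 10 dendritic cell and macrophage markers 7 were tested, and 5 fell in adult KO cells and 4 in perinate KO cells (also 4 with array 1 alone). Their summed intensity was 1026 to 1266 in adult KO GFP+ cells against 1483 to 1648 in adult WT GFP+ cells, and 945 to 1018.5 in perinate KO GFP+ cells against 1194 to 1359 in perinate WT GFP+ cells. No marker was at 0, and Itgax, Siglech and Clec9a did not pass the filter. Of the 7 M cell markers 3 fell at each age (medians -0.68 in adults and -0.88 in perinates; none was called with array 1 alone), with sums of 4726 to 5753.5 in adult KO GFP+ cells against 7062 to 8092 in adult WT GFP+ cells, and 4887 to 5755 in perinate KO GFP+ cells against 5366 to 6920 in perinate WT GFP+ cells. The part of either list in these differences was not tested, and in sorted bulk samples fewer cells of a type and less RNA per cell cannot be told apart.

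Cxcl9 was also higher in GFP+ than in GFP- cells of WT mice. The 5494.5 to 5686 of adult WT GFP+ cells stood against 3801, 3390 and 3062 in adult WT GFP- cells, and the 5072 to 5307 of perinate WT GFP+ cells against 4093 and 2085 in perinate WT GFP- cells. The arrays overlapped at neither age, which held for 56.1% of all tested genes in adults and 56.5% in perinates. Cxcl9 was higher by 0.72 ± 0.18 in adult GFP+ cells, 1.65-fold (adjusted p = 0.00318), and by 0.83 ± 0.20 in perinate GFP+ cells, 1.78-fold (adjusted p = 0.00241). It was the 1 of 3 tested members called at each age. All tested genes called came to 44.9% in adults, 24.7% higher and 20.1% lower in GFP+ cells, and to 43.5% in perinates, 23% higher and 20.5% lower. Of the 7 tested dendritic cell and macrophage markers, 4 were also higher in adult GFP+ cells and 5 in perinate GFP+ cells, and their part was not tested. The perinate value rests on 2 GFP- arrays far apart: without array 2 it was 0.35 (adjusted p = 0.0956) and without array 1 it was 1.32. Its age difference, perinate minus adult, was 0.11 ± 0.26 (adjusted p = 0.815), but 0.60 (adjusted p = 0.0405) without perinate GFP- array 1.

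Across age within 1 cell group, Cxcl9 was not called. The difference, perinate minus adult, was -0.33 ± 0.18 in KO GFP+ cells, 95% interval -0.71 to 0.04 (adjusted p = 0.178; -0.50 with perinate KO array 1 alone), -0.11 ± 0.18 in WT GFP+ cells (adjusted p = 0.7) and -0.22 ± 0.20 in WT GFP- cells (adjusted p = 0.38). In KO and in WT GFP+ cells the adult arrays nonetheless all lay above the perinate arrays, a separation that 45.7% and 39.7% of all tested genes showed. Without perinate GFP- array 1 the difference in GFP- cells was -0.71 (adjusted p = 0.00205). By mean level the WT GFP+ groups came first, adult above perinate and without overlap. Then followed adult KO GFP+ cells, GFP- cells of adults, GFP- cells of perinates and, lowest, perinate KO GFP+ cells, and these neighbours overlapped. Those means spanned 0.998 log2 units.

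Cxcl10, the other Cxcr3 ligand among the members, was not called between KO and WT cells. It read 9950.5, 8784 and 10430.3 in adult KO GFP+ cells, against 10294, 8236 and 8673 in adult WT GFP+ cells. Perinate arrays read 8067, 7729 and 7765 in KO GFP+ cells, against 7132, 8355 and 7407.5 in WT GFP+ cells. The arrays overlapped at both ages. The log2 difference, KO minus WT, was 0.10 ± 0.17, 95% interval -0.26 to 0.47, in adults (adjusted p = 0.723) and 0.04 ± 0.17, interval -0.32 to 0.41, in perinates (adjusted p = 0.866; 0.08 with KO array 1 alone). These intervals leave out a fall as large as the estimates for Cxcl9, -0.66 and -0.89.

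Between GFP+ and GFP- cells Cxcl10 was not called at either age, and 1 perinate GFP- array stood far above the other. The 8236 to 10294 of adult WT GFP+ cells stood against 8911, 6281 and 5717 in adult WT GFP- cells. The 7132 to 8355 of perinate WT GFP+ cells stood against 12551 and 7609 in perinate WT GFP- cells. The arrays overlapped at both ages. The log2 difference, GFP+ minus GFP-, was 0.40 ± 0.17 in adults (adjusted p = 0.0705), and 0.40 ± 0.10 (adjusted p = 0.0128) when the adult arrays were paired by their shared numbers. In perinates it was -0.36 ± 0.19 (adjusted p = 0.147), or -0.72 (adjusted p = 0.0106) without GFP- array 2 and 0.0009 without array 1. The age difference of the GFP+ effect was called at -0.76 ± 0.26 (adjusted p = 0.0488), the 1 call among 3 tested members. In that comparison 20% of all tested genes were called, 10.7% as higher and 9.28% as lower. The call was lost in 8 of the 11 fits that left out an array, with values from -1.12 to -0.40, and leaving out adult GFP- array 6, perinate GFP- array 2 or perinate GFP+ array 6 kept it.

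Between ages, Cxcl10 was called in GFP- cells alone. The log2 difference, perinate minus adult, was 0.51 ± 0.19 there (adjusted p = 0.0382), 1.43-fold higher in perinates, with arrays that overlapped, beside 22.2% of all genes called higher. Without perinate GFP- array 1 it was 0.15 (adjusted p = 0.576), and it was 0.45 (adjusted p = 0.106) without adult GFP- array 7 and 0.39 (0.139) without array 8. In KO GFP+ cells it was -0.30 ± 0.17 (adjusted p = 0.214; -0.27 with perinate KO array 1 alone). The adult KO arrays were all above the perinate KO arrays, and 45.7% of all tested genes separated in either direction. In WT GFP+ cells the difference was -0.25 ± 0.17 (adjusted p = 0.327). The 6 group means spanned 0.51 log2 units. The highest was that of perinate WT GFP- cells, above both adult GFP+ groups (KO, then WT) and both perinate GFP+ groups (KO, then WT), and adult WT GFP- cells were lowest. Neighbours in this order overlapped except adult WT GFP+ and perinate KO GFP+ cells.

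Cxcl16, the membrane-anchored ligand of Cxcr6, was not called in any comparison. It read 557, 450.2 and 595 in adult KO GFP+ cells, against 713, 471 and 424 in adult WT GFP+ cells. Perinate arrays read 706, 515 and 559 in KO GFP+ cells, against 715, 803 and 829 in WT GFP+ cells. The adult groups overlapped and the perinate groups did not, though only by the step between 706 and 715. Of all tested genes 43.1% separated in that perinate comparison. The log2 difference, KO minus WT, was 0.02 ± 0.22, 95% interval -0.44 to 0.48, in adults (adjusted p = 0.958) and -0.41 ± 0.22, interval -0.87 to 0.05, in perinates (adjusted p = 0.175; -0.15 with KO array 1 alone, adjusted p = 0.828).

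The 424 to 713 of adult WT GFP+ cells stood against 944, 562 and 655 for Cxcl16 in adult WT GFP- cells. The 715 to 829 of perinate WT GFP+ cells stood against 973 and 616 in perinate WT GFP- cells. The arrays overlapped at both ages. The log2 difference, GFP+ minus GFP-, was -0.43 ± 0.22 in adults (adjusted p = 0.122), and -0.43 ± 0.10 (adjusted p = 0.00881) with adult arrays paired by number, and it was 0.01 ± 0.24 in perinates (adjusted p = 0.971). Array 6 was the highest of its group in both adult WT cell groups. Of the 3 differences between ages the largest was in WT GFP+ cells, 0.58 ± 0.22, perinate minus adult, 95% interval 0.12 to 1.04 (adjusted p = 0.0671), which without adult array 6 was 0.80 (adjusted p = 0.0194). In KO GFP+ cells it was 0.15 ± 0.22 (0.41 with perinate KO array 1 alone) and in WT GFP- cells 0.14 ± 0.24. All neighbours in the order of the 6 group means overlapped.

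Counted over the members, limma called 0 of the 3 tested between ages in WT GFP+ cells, where 1, Cxcl16, had an unadjusted p under 0.05, and 0 of the 3 in KO GFP+ cells, where none had. Of all tested genes 22.2% were called in WT GFP+ cells, 8.52% as higher and 13.6% as lower in perinates. In KO GFP+ cells 26% were called, 13.4% as higher and 12.7% as lower in perinates. The GFP- comparison between ages called 2 of 4 members, Cxcl13 as lower and Cxcl10 as higher in perinates, beside 46.4% of all tested genes.

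**Figure D2:**
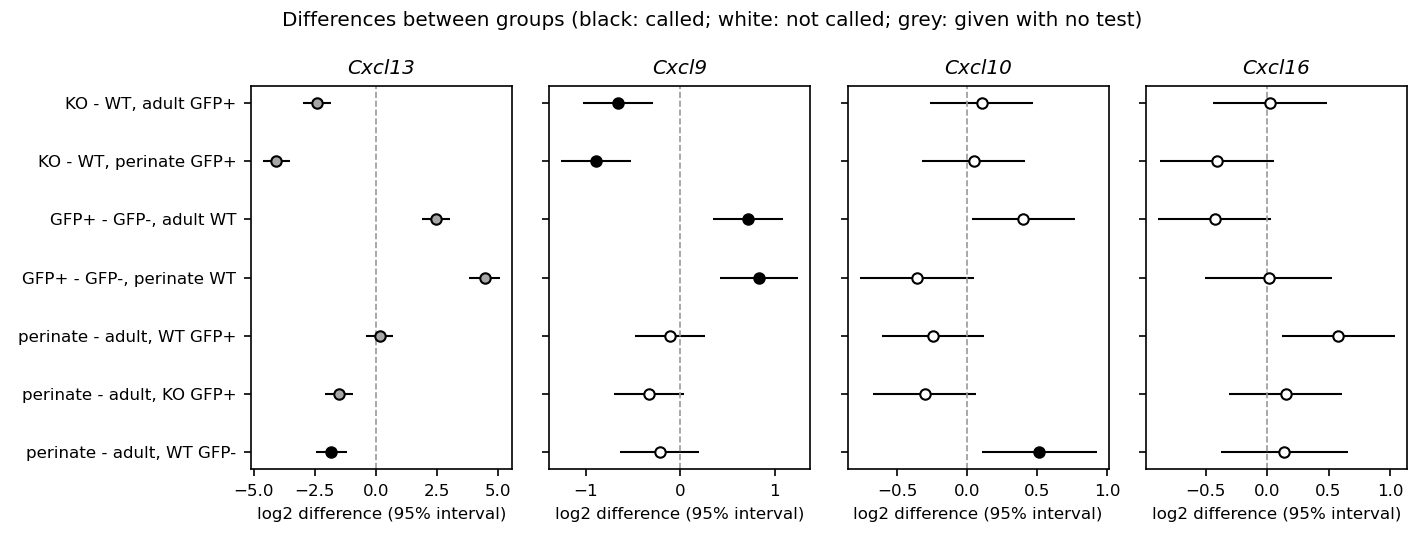
Log2 differences with 95% intervals for each chemokine in 7 comparisons, drawn on a separate horizontal scale per gene; black points were called, white points were not and grey points, 6 of the 7 for Cxcl13, carry no test. Cxcl9 lies left of 0 for KO minus WT (-0.66 in adults, -0.89 in perinates) and right of 0 for GFP+ minus GFP- (0.72 and 0.83). For KO minus WT neither Cxcl10 (0.10 in adults, 0.04 in perinates) nor Cxcl16 (0.02 and -0.41) was called.

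Arrays of 1 group did not always agree on these chemokines. Perinate GFP- array 1 exceeded array 2 for 4 of 4 chemokines, by a median of 0.69 log2 units, and for 12 of 14 interferon-gamma genes, by a median of 0.55. Among all tested genes 61.4% were higher on array 1, by a median of 0.08. In adults, array 6 was above arrays 7 and 8 for 3 of the 4 chemokines in GFP+ cells and in GFP- cells, against 30.9% and 30.5% of all genes. The 7 tested T cell and thymocyte markers were also all highest on array 6 in both adult WT cell groups. Over the 9 measured, their summed intensity ran from 1191.5 to 2308 in adult WT GFP+ cells, and lay between 1029 and 2028 in adult WT GFP- cells. Their part in the array differences was not tested.

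The interferon-gamma list shows the setting of Cxcl9 and Cxcl10, with 14 of 18 genes measured by a single-symbol probe set. In adult KO GFP+ cells 3 of the 14 were called lower and none higher, though 2 were higher at an unadjusted p under 0.05, and 1 or 2 were called higher under 6 of the alternatives, among them 2 with each array centred on its median. The lower count was 1 without adult WT GFP+ array 6 or 7 or adult KO array 2. In perinate KO GFP+ cells 1 was called lower and 2 higher. Of all tested genes 19.9% were called in adults and 26.5% in perinates. The 14 had a median log2 difference of -0.11 in adults and -0.02 in perinates, beside 0.06 and 0.09 for all tested genes. Ido1, a tryptophan-degrading enzyme, was called at both ages, with 57.9 ± 3.78 in adult KO GFP+ cells against 278 ± 45.6 in adult WT GFP+ cells, and 48.8 ± 7.97 in perinate KO GFP+ cells against 154 ± 16.6 in perinate WT GFP+ cells (SD, n = 3 each). Its difference, KO minus WT, was -2.25 ± 0.13 in adults (adjusted p = 1.47e-09) and -1.67 ± 0.13 in perinates (adjusted p = 9.38e-08; -1.56 with KO array 1 alone). Its KO levels lay below the 40th percentile of an array, 96.2 to 112. Ido1 therefore passed the filter through groups where it was brighter, and its KO level cannot be told from background.

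The other called interferon genes were closer to the threshold. The GTPases Iigp1, at -0.63 ± 0.20, and Gbp7, at -0.56 ± 0.16, fell in adult KO cells (adjusted p = 0.0343 and 0.0197), and single arrays moved the p across the threshold more than they moved the value. Iigp1 was not called without any 1 of the 6 arrays, at -0.70 to -0.55 (adjusted p = 0.0563 to 0.111). Gbp7 was not called without adult KO array 2 (-0.49, 0.0941) or without adult WT GFP+ array 6 (-0.47, 0.0848) or 7 (-0.55, 0.0579). Ciita, the master regulator of MHC class II, rose by 0.94 ± 0.23 and Irf8, a transcription factor, by 0.54 ± 0.17 in perinate KO cells, and both lost the call with KO array 1 alone (0.41, adjusted p = 0.426, and 0.14, adjusted p = 0.748). The receptor genes Ifngr1 and Ifngr2 and the kinases Jak1 and Jak2 were not called in KO cells at either age.

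Between GFP+ and GFP- cells of WT mice, limma called 24.7% of all tested genes higher and 20.1% lower in adult GFP+ cells. Of the 14 interferon genes 5 were higher there, among them Ciita by 1.48 ± 0.23, Ido1 by 1.37 ± 0.13 and Gbp5 by 0.84 ± 0.22. None was lower, while with arrays paired by number 2 were called lower. In perinate GFP+ cells 23% of all tested genes were called higher and 20.5% lower. Of the 14 interferon genes 3 were higher there, led by Ido1 at 1.83 ± 0.15, and 5 were lower, led by Iigp1 at -1.61 ± 0.22 and Irgm1 at -1.59 ± 0.33. Iigp1 averaged 393 ± 118 in perinate WT GFP+ cells (SD, n = 3) and 1202 ± 389 in perinate WT GFP- cells (SD, n = 2). Without perinate GFP- array 1 the counts were 5 higher and 3 lower.

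Between ages, perinate minus adult, limma called 13.6% of all tested genes lower and 8.52% higher in perinate WT GFP+ cells. Of the 14 interferon genes 4 were lower there, Irf8 at -0.95 ± 0.17, Ido1 at -0.85 ± 0.13, Ciita at -0.81 ± 0.23 and Gbp5 at -0.64 ± 0.22, and none was higher. The count was 2 without adult array 7, adult array 8 or perinate array 5: Gbp5 was not called without any 1 of adult arrays 6, 7 and 8 and perinate arrays 5 (-0.37) and 7, nor Ciita without adult array 7 or 8 or perinate array 5 or 6 (-0.79 to -0.70). In KO GFP+ cells Gbp7 was higher at 0.60 ± 0.16 and Irf8 lower at -0.90 ± 0.17 in perinates, beside 26% of all tested genes called. With perinate KO array 1 alone they stood at 0.44 and -1.30. In GFP- cells 22.2% of all tested genes were called higher in perinates and 24.2% lower. Of the 14 interferon genes 6 were higher there, led by Iigp1 at 1.10 ± 0.22 and Irgm1 at 1.09 ± 0.33, and 2 were lower, Ido1 at -1.30 ± 0.15 and Irf8 at -1.24 ± 0.19. That count also moved with perinate GFP- array 1, without which 1 gene was higher and 4 were lower.

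Lymphotoxin receptor and non-canonical NF-kB signalling, which drives Cxcl13 in lymphoid stroma, was represented by 12 tested genes. In adult KO GFP+ cells limma called none of them (1, Cd40, had an unadjusted p under 0.05), and in perinate KO GFP+ cells 1 fell and 2 rose. Those were the cytokine Tnf at -1.35 ± 0.30, the RANK receptor Tnfrsf11a at 0.41 ± 0.14 and the kinase Map3k14 at 0.40 ± 0.11, and none was called with KO array 1 alone, where they stood at -1.26, 0.21 and 0.34. The median of the 12 was -0.02 in adults and 0.08 in perinates, beside 0.06 and 0.09 for all tested genes. Of all tested genes 19.9% were called in adult KO cells and 26.5% in perinate KO cells. The receptor Ltbr read 186 ± 20.2 in adult KO GFP+ cells against 199 ± 10.8 in adult WT GFP+ cells (SD, n = 3 each).

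Between GFP+ and GFP- cells, 6 of the 12 were higher and 2 lower in adult GFP+ cells, beside 44.9% of all tested genes called. In perinate GFP+ cells 8 were higher and 2 lower, beside 43.5% of all tested genes. The costimulatory receptor Cd40 was the highest at both ages, at 2.01 ± 0.11 in adults and 2.19 ± 0.12 in perinates. It averaged 3252 ± 190 in adult WT GFP+ cells, with 811 ± 88.7 in adult WT GFP- cells (SD, n = 3 each). Ltbr and the TNF receptor Tnfrsf1a were the lower pair at both ages, Ltbr at -0.73 ± 0.14 and Tnfrsf1a at -1.02 ± 0.14 in adults. Without perinate GFP- array 2, 5 genes were called higher in perinate GFP+ cells.

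**Figure D3:**
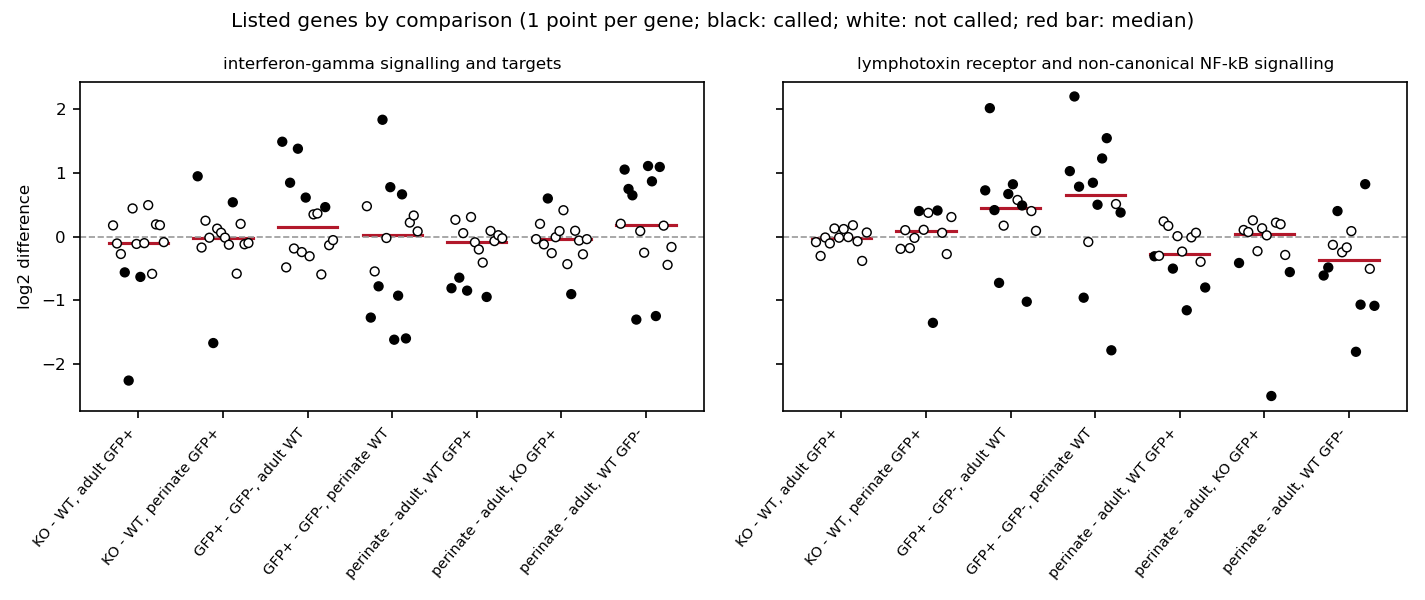
Log2 differences of the tested genes of the interferon-gamma list (left) and the lymphotoxin and NF-kB list (right) in 7 comparisons, 1 point per gene, black where called and white where not, with the list's median as a red bar. For KO minus WT most points lie near 0. Those farthest from it are Ido1 at -2.25 in adults and -1.67 in perinates and, in perinates, Tnf at -1.35 and Ciita at 0.94. GFP+ minus GFP- shows points far from 0 on both sides.

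Of the 11 other CXC ligands measured, 9 were tested, and those called in KO cells were all lower. In adult KO GFP+ cells 3 fell, Ppbp, Pf4 and Cxcl17, and in perinate KO GFP+ cells 2 fell, Ppbp and Cxcl17. Ppbp, a platelet chemokine, averaged 32.1 ± 1.80 in adult KO GFP+ cells against 594 ± 207 in adult WT GFP+ cells, and 31.2 ± 0.39 in perinate KO GFP+ cells against 390 ± 17.2 in perinate WT GFP+ cells (SD, n = 3 each). Its log2 difference, KO minus WT, was -4.15 ± 0.34 in adults (adjusted p = 6.64e-08) and -3.65 ± 0.34 in perinates (adjusted p = 5.03e-07; -3.62 with KO array 1 alone). The KO levels of Ppbp lay below the 40th percentile of an array, 96.2 to 112. It therefore passed the filter through groups where it was brighter, and its KO level cannot be told from background. Cxcl17, a mucosal chemokine, differed by -0.83 ± 0.12 in adults and -0.93 ± 0.12 in perinates (-0.99 with array 1 alone), and Pf4, a platelet chemokine like Ppbp, by -1.09 ± 0.14 in adults. The median of the 9 was -0.40 at both ages, beside 0.06 in adults and 0.09 in perinates for all tested genes. Of all tested genes 10.8% were called lower in adult KO cells and 13% in perinate KO cells.

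Cxcl11, which shares the receptor Cxcr3 with Cxcl9 and Cxcl10, was not called in KO cells, at 0.41 ± 0.24 in adults (adjusted p = 0.245) and 0.12 ± 0.24 in perinates (adjusted p = 0.737). It averaged 970 ± 74.0 in adult KO GFP+ cells against 728 ± 58.5 in adult WT GFP+ cells, with 342 ± 95.6 in adult WT GFP- cells (SD, n = 3 each). In adult GFP+ cells it was higher than in GFP- cells by 1.13 ± 0.24 (adjusted p = 0.00104). With the adult groups compared alone in the fit, the rise of Cxcl11 in KO cells was called, at 0.41 ± 0.11 (adjusted p = 0.0198). Differences between the 3 Cxcr3 ligands were not tested. Between ages Cxcl11 was lower in perinates, at -0.77 ± 0.24 in WT GFP+ cells (adjusted p = 0.0282, not called without adult array 6 at 0.0789 or 8 at 0.0741, nor without perinate array 5 at 0.0668 or 7 at 0.115, where the value was -0.61) and -1.07 ± 0.24 in KO GFP+ cells (adjusted p = 0.00365; -0.99, adjusted p = 0.0805, with perinate KO array 1 alone).

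Another ligand was high in the GFP- cells of perinates. Cxcl12, the ligand of Cxcr4 that retains precursors in lymphoid niches, averaged 102 ± 5.17 in adult WT GFP- cells (SD, n = 3) and 747 ± 60.8 in perinate WT GFP- cells (SD, n = 2), a difference of 2.88 ± 0.13, perinate minus adult (adjusted p = 1.83e-10). GFP+ cells stayed at 82.2 ± 3.42 in WT adults and 90.2 ± 8.47 in WT perinates (SD, n = 3 each). These levels and that of adult GFP- cells lay near or below the 40th percentile of an array, 96.2 to 112. The differences of Cxcl12 therefore rest on the 2 perinate GFP- arrays, where alone it was bright among these groups. Cxcl2, a neutrophil attractant, was lower in perinates in each cell group, at -2.21 ± 0.39 in KO GFP+ cells (-2.22 with perinate KO array 1 alone), -1.79 ± 0.39 in WT GFP+ cells and -2.50 ± 0.44 in WT GFP- cells.

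**Figure D4:**
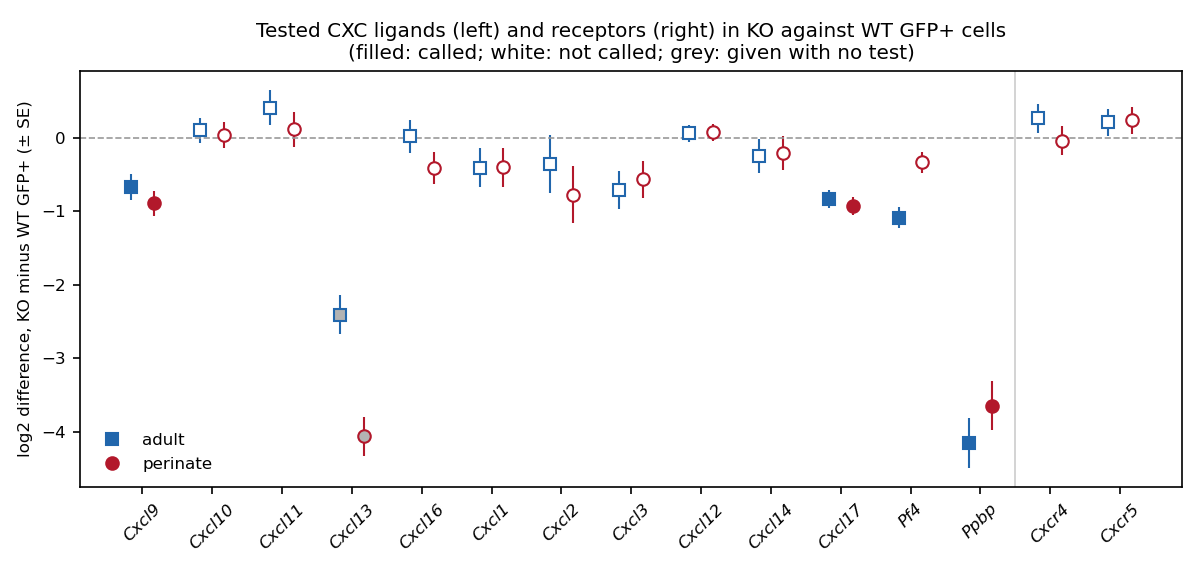
Log2 difference, KO minus WT GFP+ cells, for the tested CXC ligands and, right of the line, receptors, with standard errors; squares are adults and circles perinates, filled where called, white where not and grey for Cxcl13, which carries no test. Ppbp (-4.15 in adults, -3.65 in perinates) and Cxcl13 (-2.41 and -4.07) lie far below the other genes.

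Of 8 CXC receptors measured, 6 did not pass the filter, among them Cxcr3 and Cxcr6, the receptors for Cxcl9, Cxcl10 and Cxcl16. Cxcr5, the receptor for Cxcl13, averaged 202 ± 37.8 in adult KO GFP+ cells against 172 ± 13.2 in adult WT GFP+ cells, with 84.1 ± 14.1 in adult WT GFP- cells (SD, n = 3 each), near the 40th percentile of an array, 96.2 to 112. Neither Cxcr5 nor Cxcr4 was called in KO cells at either age, nor had either an unadjusted p under 0.05. Cxcr5 was higher in GFP+ than in GFP- cells by 1.04 ± 0.18 in adults and by 1.16 ± 0.21 in perinates. Cxcr4 was not called in adults, at 0.28 ± 0.20, but with arrays paired by number it was, at 0.28 ± 0.09 (adjusted p = 0.0363). In perinates Cxcr4 was called higher in GFP+ cells, at 0.89 ± 0.22 (limma, adjusted p = 0.00347), or 0.66 without GFP- array 2. Between ages it was lower in perinate GFP- cells, at -0.64 ± 0.22 (limma, adjusted p = 0.026). That value was -0.40 without perinate GFP- array 2 and -0.46 without adult GFP- array 6, where it was not called. Cxcr5 was lower in perinates than in adults in each cell group, at -1.33 ± 0.18 in KO GFP+ (-1.65 with perinate KO array 1 alone), -1.35 ± 0.18 in WT GFP+ and -1.47 ± 0.21 in WT GFP- cells. By these differences its mean perinate levels lay below the 40th percentile of an array, 96.2 to 112. The dim end therefore limits the size of its age differences and of its perinate GFP+ difference.

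Adam17, 1 of the proteases that release Cxcl16, rose by 0.53 ± 0.12 in adult KO cells (adjusted p = 0.00355), with 1620.3 ± 33.8 in adult KO GFP+ cells against 1126 ± 62.6 in adult WT GFP+ cells (SD, n = 3 each). In perinate KO cells neither it nor Adam10 was called. Adam17 was also higher in GFP+ than in GFP- cells, by 0.44 ± 0.12 in adults and by 0.86 ± 0.13 in perinates. Adam10 was at -0.32 ± 0.14 in adult GFP+ cells (adjusted p = 0.0696) and, with arrays paired by number, at -0.32 ± 0.09 (adjusted p = 0.0185).

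Cell types that make or respond to Cxcl13 elsewhere were followed by their markers. The 9 fibroblast and follicular stromal markers summed to 5184.5 to 5622 in adult KO GFP+ cells against 3442.5 to 3962 in adult WT GFP+ cells, and to 5997 to 6327 in perinate KO GFP+ cells against 4950 to 6134 in perinate WT GFP+ cells. In adult KO cells 3 of the 9 rose and 3 fell, and in perinate KO cells 3 rose and 4 fell (2 and 3 with array 1 alone). Cr2, a complement receptor of follicular dendritic and B cells, was among those that rose, with 675 ± 75.4 in adult KO GFP+ cells against 327 ± 48.4 in adult WT GFP+ cells and 731 ± 12.7 in perinate KO GFP+ cells against 338 ± 57.5 in perinate WT GFP+ cells (SD, n = 3 each). In perinate KO cells with array 1 alone Cr2 stood at 1.11 and Lum of the same list at 1.01. Other genes of the list went the other way there, Col1a1 at -1.21, Pdgfrb at -1.07 and Madcam1 at -1.01. Cr2 therefore does not stand for its list. Of 8 B cell markers measured, 4 were tested, limma called none in adult KO cells (1 had an unadjusted p under 0.05) and 2 rose in perinate KO cells (1 with array 1 alone). The 8 summed to 1243 to 1460.5 in adult KO GFP+ cells against 1304 to 1401 in adult WT GFP+ cells, and to 1163 to 1227 in perinate KO GFP+ cells against 1206.5 to 1230 in perinate WT GFP+ cells. Between GFP+ and GFP- cells, 5 of the 9 stromal markers were higher in GFP+ cells at each age, and 2 of the 4 B cell markers in adults and 3 in perinates. Of all tested genes 24.7% were called higher in adult GFP+ cells and 23% in perinate GFP+ cells. Between KO and WT cells the shares of all tested genes were 9.06% higher and 10.8% lower in adults, and 13.5% higher and 13% lower in perinates. No marker was at 0, and their part in the differences of Cxcl13 was not tested.

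Of the genes next to the members 10 were tested, and limma called none of them between KO and WT cells at either age, where 2 had an unadjusted p under 0.05 at each age. In these comparisons 19.9% of all tested genes were called in adults and 26.5% in perinates. Cnot6l, the neighbour of Cxcl13 that was tested, differed by 0.08 ± 0.10 in adults and -0.05 ± 0.10 in perinates. Sdad1 and Art3, on either side of Cxcl9, differed by 0.02 ± 0.12 and 0.00 ± 0.18 in adults and by 0.21 ± 0.12 and -0.12 ± 0.18 in perinates. The group means of Art3 ran from 66.7 in perinate KO GFP+ cells to 99.0 in adult WT GFP+ cells. These lie near or below the 40th percentile of an array, 96.2 to 112, where a fall could hardly show. Between GFP+ and GFP- cells 5 of the 10 were called at each age, beside 44.9% of all tested genes in adults and 43.5% in perinates. Tm4sf5, the second gene beyond Cxcl16, was higher in GFP+ cells, by 1.57 ± 0.13 in adults and 2.67 ± 0.15 in perinates. Arrb2 and Med11, before Cxcl16, were higher by 0.91 ± 0.14 and 0.98 ± 0.18 in adults and by 0.95 ± 0.16 and 0.81 ± 0.21 in perinates. Zmynd15, the next gene after Cxcl16, and Cxcl16 itself were called at neither age.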

How the data were processed

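Gene expression was measured in 17 sorted samples on Affymetrix Mouse Gene 1.0 ST arrays, 1 array per sample, and groups and array numbers were taken from the sample titles. The authors deposited intensities per probe set, linear and ranging from 6.36 to 20106, made with Affymetrix Power Tools and RMA, per the submitters' processing notes. Versions, and which arrays were normalised together, were not given in the sources used here. RMA equalises the arrays' distributions and compresses low intensities, so differences near the dim end are understated, and the levels of different probe sets cannot be compared with each other. Precision is limited by how many arrays there are.

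The platform annotation gave 21425 of 24922 probe sets 1 symbol, 1399 several and 2098 none, which are unnamed here. By Entrez number 21347 were found in the RefSeq annotation of GRCm38.p6, with 0 symbols differing. Genes with several probe sets were represented by that with the highest mean, which left 19752 genes. Log2 of the intensity was analysed, no pseudocount being added, and testing was limited to genes that exceeded an array's 40th percentile on 2 or more arrays. A single linear model with a mean per group was fitted to the 17 arrays by limma 3.58.1 (R 4.3.3; lmFit, contrasts.fit and eBayes at their defaults) and gave every comparison. Each p-value is two-sided and adjusted by the Benjamini-Hochberg method over 13842 genes within a comparison, with 0.05 as the threshold of a call. Residual degrees of freedom were 11, with a prior of 5.52. Fold changes come from mean log2 intensities and levels with an SD from linear intensities. No test was run on gene lists. The same steps were tested on simulated data.

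The members and lists were chosen with earlier results of these data known. The genes named are the members, at most 4 called genes per list and comparison with the largest difference, the 2 protein-coding genes on either side of a member, and the 3 genes nearest in profile to a member whose group means span at least 1 log2 unit, which was Cxcl13 alone. Aire, Ptprc, Enpep, Uty and Xist were named as checks, and list genes outside that rule (such as Cxcl11, Cxcr4 and Adam10 where not called, Ltbr, Cr2, Ifngr1, Ifngr2, Jak1 and Jak2) after their values were seen. Adult GFP+ and GFP- arrays share the numbers 6, 7 and 8, and arrays with the same number deviated together from their group means (correlations of 0.503, 0.443 and 0.188 over the tested genes), so a fit with the number as a block is given where it changes a call of a member, and for the list genes as a count.

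The alternatives were quantile normalization, centring each array, no filter or one at the 60th percentile, a pseudocount of 50, array weights, eBayes with trend and robust, a fit of the groups compared alone, leaving out each array, perinate KO array 1 alone and the block. Other probe sets of the members were not run, since each has 1.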

Additional observations from a re-analysis of the deposited data

Results flagged for a closer look

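In 9 cases the difference between GFP+ and GFP- cells of WT mice was not the same in adults and perinates, by limma's interaction test. They were found among the 3 tested members and the 39 tested genes of the ligand, receptor, protease, interferon-gamma and NF-kB lists. That share was similar to the 20% called among all tested genes, so these cases do not stand out by their number. All values are the GFP+ effect in perinates minus that in adults, on the log2 scale. Among the chemokines it was -0.76 for Cxcl10, -2.75 for Cxcl12 and 0.66 for Cxcl17. The GFP+ effect on Cxcl12 was -0.30 in adults and -3.05 in perinates, and it rests on the 2 perinate GFP- arrays, since the other WT groups were near background. Among interferon-gamma genes it was -1.39 for Gbp5, -1.31 for Iigp1, -1.27 for Irf1 and -1.01 for Ciita. Irf1, an interferon-induced transcription factor, averaged 1779 ± 373 in WT GFP+ cells of adults and 1383 ± 122 in their GFP- cells (SD, n = 3 each), against 1352 ± 332 in perinate WT GFP+ cells (SD, n = 3) and 2705 ± 1428 in perinate WT GFP- cells (SD, n = 2). Among NF-kB receptors it was 1.05 for Tnfrsf11a and -0.76 for Tnfrsf1a.

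Some of these moved with 1 perinate GFP- array. Without array 1, which was above array 2 for 12 of 14 interferon genes, the adjusted p was 0.0587 for Gbp5 (-1.03), 0.161 for Irf1 (-0.71), 0.105 for Tnfrsf1a (-0.49) and 0.307 for Cxcl10 (-0.40). Without array 2 Ciita was at -0.67 (adjusted p = 0.242). Ciita was close to the threshold and was also not called without adult GFP- array 6 or 8, adult GFP+ array 7 or 8, or perinate GFP+ array 5 or 6 (-0.99 to -0.90), nor with quantile normalization, no filter, array weights, trend and robust, or the groups compared alone. Cxcl17 was not called without perinate GFP- array 2 (0.65, adjusted p = 0.0522), adult GFP+ array 6 (0.53, 0.0503) or with array weights (0.60, 0.0675), and Irf1 without adult GFP+ array 6 (-1.12, 0.0532) or perinate GFP+ array 7 (-1.05, 0.0526). The part of the spread between arrays was not tested.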

How the results depend on the processing

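Over the 4 chemokines, 9 comparisons and 27 alternatives, 530 of 564 values counted as unchanged, 34 did not, and 22 of 36 results had no change. A tested value counted as unchanged if it kept its call and, where either fit called it, its direction. A value of Cxcl13 without a test had to keep its direction and stay within the spread of replicates. Reversals without a call were therefore not counted as changes. Cxcl16, KO minus WT in adults, ran from -0.13 to 0.25 with each array left out. The difference of Cxcl9 between KO and WT cells kept its call at both ages. With quantile normalization the age difference of the Cxcl10 GFP+ effect was -0.61 (adjusted p = 0.115), Cxcl10 between ages in GFP- cells 0.30 (0.228) and Cxcl16 between ages in WT GFP+ cells 0.63 (0.0432). Without the filter the Cxcl10 age difference of the GFP+ effect stayed at -0.76 (adjusted p = 0.0573). A pseudocount of 50 gave 3.99 for Cxcl13 in perinate GFP+ against GFP- cells. Array weights gave 0.44 (adjusted p = 0.0113) for Cxcl10 in adult GFP+ against GFP- cells and 0.63 (0.0377) for Cxcl16 between ages in WT GFP+ cells. With the groups compared alone in the fit, Cxcl10 had -0.76 (adjusted p = 0.103) for the age difference of the GFP+ effect, -0.30 (0.0459) between ages in KO cells and 0.51 (0.147) in GFP- cells.

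With perinate KO array 1 alone, Cxcl13 was at -3.51 for KO in perinates, -1.11 for the age difference of the KO effect and -0.96 between ages in KO cells. That setting left 1171 in place of 3664 called genes for KO in perinates and 1876 in place of 3604 between ages in KO cells, and the age difference of the KO effect called 167 genes, with 46 to 809 over the alternatives. With the replicate block, Cxcl10 was at 0.40 (adjusted p = 0.0128) and Cxcl16 at -0.43 (0.00881) in adult GFP+ against GFP- cells, and 9 of the 39 tested genes of the 5 pathway lists were called there only with the block (Cxcl2, Cxcr4, Irf1, Irf8, Gbp3, Irgm1, Tnf, Tnfsf13b and Adam10), while none lost its call. Arrays of the 2 ages share only numbers, with correlations of deviations of 0.0486, 0.039 and 0.0589 in KO cells and 0.033 and 0.19 in WT GFP+ cells, where the block gave 0.49 (adjusted p = 0.0427) for Cxcl16. It changed no other call of the 4 chemokines.

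Leaving out each array in turn moved Cxcl9 over 0.35 to 1.32 in perinate GFP+ against GFP- cells, -0.37 to 0.60 for the age difference of that effect and -0.71 to 0.27 between ages in GFP- cells. It moved Cxcl10 over 0.27 to 0.59 in adult GFP+ against GFP- cells, -0.72 to 0.0009 in perinates, -1.12 to -0.40 for the age difference and 0.15 to 0.88 between ages in GFP- cells. Cxcl16 moved over -0.65 to -0.22 in adult GFP+ against GFP- cells and 0.43 to 0.80 between ages in WT GFP+ cells. Where a setting changed a value, the cause was not tested. Perinate GFP- cells have 2 arrays, so results on them are the least firm, and a lone array was assumed to vary like the other groups.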
